A study of Homo sapiens with 2 samples.

Results

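The 10 cardiac transcription factor genes NKX2-5, TBX5, TBX20, TBX2, TBX3, HAND1, HAND2, ISL1, MEF2C and IRX4 were followed through the cell types of blood-generating heart-forming organoids (BG-HFOs). They were taken by symbol from the 36601 features of the count matrices, and none of them was used to assign a cell to a cell type. BG-HFOs are aggregates of human pluripotent stem cells in Matrigel, differentiated by biphasic WNT modulation with added haemato-endothelial growth factors and cytokines, and they hold myocardium, endothelium, mesenchyme and blood cells. The BG-HFOs 32.7 and 33.10 were dissociated separately on day 14 of differentiation and sequenced as 1 single-cell 3′ library each. Both came from hES3 NKX2.5-eGFP, an established human embryonic stem cell line with an eGFP reporter inserted into the NKX2-5 locus, so all cell types share this genotype and received the same factors. Comparisons were therefore made between cell types within 2 organoids of 1 condition and 1 line, and the p-values measure only the spread between these 2 organoids. Reads were aligned to the standard human reference of 10x Genomics, and no eGFP feature is among the counted genes.

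The 10 factors belong to the gene regulatory network of the developing heart, in which homeobox proteins (NKX2-5, ISL1, IRX4), T-box proteins (TBX5, TBX20, TBX2, TBX3), basic helix-loop-helix proteins (HAND1, HAND2) and the MADS-box protein MEF2C bind enhancers of contractile and ion channel genes, often together with GATA factors. NKX2-5, TBX5, TBX20 and MEF2C activate the myocardial programme, TBX2 and TBX3 repress working-myocardium genes in the atrioventricular canal and conduction system, ISL1 is a factor of cardiac progenitors that is lost as cardiomyocytes mature, and IRX4 is a ventricular factor. Several also act outside the myocardium, among them HAND2 and TBX20 in mesenchyme and epicardium, and MEF2C in endothelium, megakaryocytes and myeloid cells.

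Organoid 32.7 gave 191152562 unique molecular identifiers (UMIs, counted transcripts) in 16866 barcodes and organoid 33.10 gave 233818881 in 19948 barcodes, and 100 barcodes occurred in both. After a filter of 50 to 11000 genes and under 30% mitochondrial UMIs, 16792 and 19893 cells remained. Cells were gated on raw UMIs of marker genes. No gate was met by 6699 and 7350 cells in organoids 32.7 and 33.10 (39.9% and 36.9%). These were shallow, with medians of 3161 and 4110 UMIs. The MYH6 gate (at least 5 UMIs of MYH6, the atrial and embryonic myosin heavy chain) held 1312 and 1303 cells, given here and below in the order 32.7 and 33.10. The endothelium gate (at least 2 CDH5 and 1 PECAM1) held 2009 and 1798 cells, the epicardial gate (TBX18 and at least 3 UMIs over TBX18, WT1, ALDH1A2, UPK3B and BNC1) 467 and 676, and the other-mesenchyme gate (at least 3 over PDGFRA, PRRX1, TWIST1, LUM and DCN, with no TBX18, UPK3B or BNC1) 2239 and 1846. The blood gate held 2493 and 4885 cells, with erythroid, megakaryocytic (ITGA2B, GP9, GP1BA, TMEM40) and myeloid (PTPRC with SPI1, CD33, CSF1R or FCER1G) gates within it, and the endoderm gate only 24 and 13. Markers kept out of the gates were highest in the gate of their label, except the epicardial list. The summed level of TNNT2, ACTC1, MYL7 and TNNI1 was 20416 and 17402 CPM (UMIs of the gene per 1000000 UMIs of the gate) in the MYH6 gate, at most 307 in each blood gate, 150.2 and 147 in endothelium, and 1503 and 1295 in the epicardial gate. The epicardial list (TCF21, SEMA3D, LRRN4, KRT19) reached 743 and 633 CPM in the epicardial gate but also 572 and 452 in other mesenchyme, 466 and 432 in the MYH6 gate and 928 and 1509 in the endoderm gate, and it therefore separates the epicardial gate weakly. The mesenchyme list (COL1A1, COL3A1, PDGFRB, POSTN) stood at 3188 and 2612 CPM in other mesenchyme and 2528 and 2075 in the epicardial gate. It too separates these gates weakly. Epicardial-gate cells were deeper than other mesenchyme, with medians of 14075 and 13598.5 UMIs against 9176 and 10008. A cell with no TBX18 UMI could not enter the epicardial gate, and how many such cells stand in other mesenchyme was not tested.

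Cells that met gates of several cell types were set apart, since no doublet caller was run. Of all cells with at least 5 MYH6 UMIs, 38.7% and 42.4% also met another gate, most often other mesenchyme (21.4% and 16.9%) or blood (12.9% and 22.9%), and they were deep, with medians of 18909.5 and 23811.5 UMIs against 7904 and 9953 in the gate. The MYH6 gate is a range rather than a sharp class, as 594 and 381 cells had 3 or 4 MYH6 UMIs and 466 and 368 had 5 to 7. Below, a level is the sum of a gene's UMIs over the cells of a gate in CPM. The gates are not an account of all cells. Cells of no gate held TBX20 at 63.8 and 87.8 CPM, HAND1 at 141 and 53.9 and HAND2 at 128 and 119. Intronic reads were counted, so levels are compared between gates for a given gene and not between genes.

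Relative to the other gates, the MYH6 gate had NKX2-5, TBX5, TBX20 and IRX4 at higher levels in all 4 comparisons, whereas TBX2, TBX3, HAND2 and ISL1 were lower there than in other mesenchyme. Against endothelium, 8 of the 10 genes were higher and TBX3 and MEF2C lower in the MYH6 gate, where 26.6% of all 21733 genes tested were higher and 25.2% lower, 51.8% together (edgeR's quasi-likelihood test on sums per gate and organoid, Benjamini-Hochberg adjusted p under 0.05). Against blood, 9 genes were higher and none lower, with 29.9% of all genes higher and 26.5% lower (56.5% together). Against the epicardial gate 6 genes were higher and HAND2 lower, with 14.4% of all genes higher and 14.0% lower (28.4% together). Against other mesenchyme 5 were higher and 4 lower, with 15.8% of all genes higher and 16.4% lower (32.2% together). Between the epicardial gate and other mesenchyme, TBX5 was higher and NKX2-5 and HAND1 lower in the epicardial gate, where only 0.727% of all genes were higher and 0.428% lower (1.15% together). The median log2 difference of the 10 genes was 3.64 against endothelium and 3.56 against blood but 1.19 against the epicardial gate and 0.49 against other mesenchyme, with medians over all genes between -0.01 and 0.06.

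**Figure D1:**
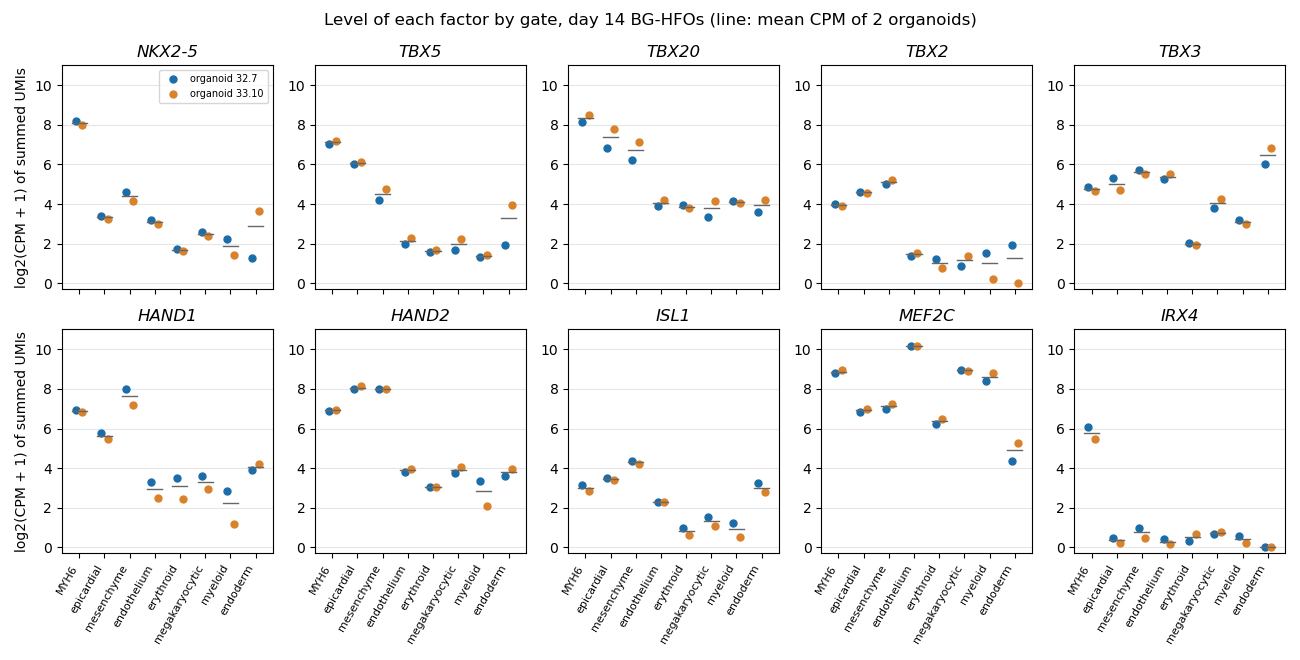
Level of each of the 10 genes as log2(CPM + 1) in 8 gates, with 1 point per organoid and a line at the mean CPM of both. The MYH6 gate was highest for NKX2-5, TBX5, TBX20 and IRX4, the endothelium for MEF2C, and the epicardial or other-mesenchyme gate for TBX2, HAND1, HAND2 and ISL1.

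**Figure D2:**
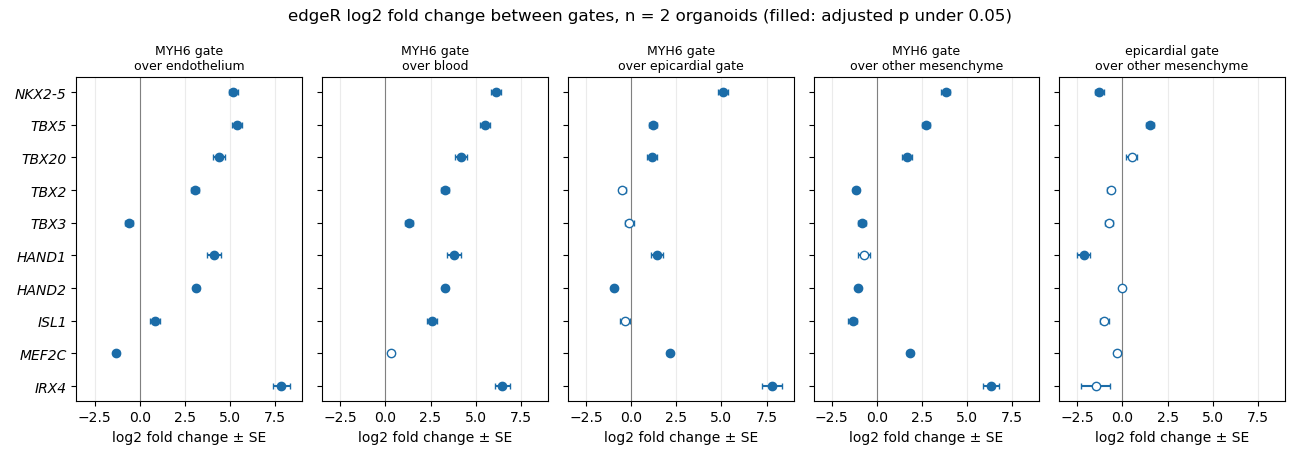
Log2 difference of each gene in the comparisons between gates with bars of 1 standard error, from sums per gate in 2 organoids (edgeR). Filled points passed an adjusted p of 0.05. NKX2-5 lay between 3.81 and 6.11 above every other main gate, whereas HAND2 lay near -1 against both mesenchymal gates.

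NKX2-5 (ENSG00000183072, chr5:173232109-173235311, minus strand, GRCh38), the homeobox factor that is among the first markers of committed cardiac cells, was high in the MYH6 gate and low in every other gate. It stood at 287 and 256 CPM in the MYH6 gate, 23.6 and 16.8 in other mesenchyme, 9.59 and 8.47 in the epicardial gate, 8.18 and 6.92 in endothelium and 3.66 and 2.94 in blood. Both organoids gave the same order of these 5 gates, and their ranges did not overlap. The range of the small endoderm gate (1.40 and 11.7 CPM) took in those of the epicardial gate, endothelium and blood. Cells that met no gate stood at 29.0 and 24.1 CPM, above every gate but the MYH6 gate. The log2 difference of the MYH6 gate was 3.81 ± 0.25 (SE, n = 2 organoids) against other mesenchyme (adjusted p = 1.477e-06), 5.09 ± 0.27 against the epicardial gate (4.665e-07), 5.18 ± 0.26 against endothelium (9.054e-08) and 6.11 ± 0.28 against blood (4.064e-08, edgeR's quasi-likelihood test). NKX2-5 was lower in the epicardial gate than in other mesenchyme by 1.29 ± 0.25 on the log2 scale (adjusted p = 0.0393). This call was lost with stricter gates (0.0721), with free RNA removed (0.0852) and with cells of several gates kept in the MYH6 gate (0.0512), and adjusted p over the alternatives ran from 0.0001 to 0.0852. In 981 and 1157 cells of the MYH6 gate thinned to 4000 UMIs, NKX2-5 was found in 62.9% (exact binomial 95% interval 59.8 to 65.9) and 59.7% (56.8 to 62.6), against 1.14% and 1.11% of erythroid cells. Before thinning the MYH6-gate shares were 74.0% and 81.8%, at median depths of 7904 and 9953 UMIs against 14854.5 and 11007.5 in erythroid cells. Thinned shares were 7.21% and 4.44% in other mesenchyme, 3.54% and 2.34% in endothelium and 2.42% and 2.90% in the epicardial gate.

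TBX5 and TBX20 are T-box factors of chamber myocardium, and both were also found outside the MYH6 gate. TBX5 was found mainly in the epicardial gate, and TBX20 in the epicardial and other-mesenchyme gates. TBX5 (ENSG00000089225, chr12:114353911-114408442, minus strand) measured 131 and 145 CPM in the MYH6 gate, 65.0 and 69.2 in the epicardial gate, 17.7 and 26.0 in other mesenchyme, 2.90 and 3.87 in endothelium and 1.95 and 3.02 in blood. The first 3 gates did not overlap, whereas endothelium and blood did. The MYH6 gate exceeded the epicardial gate by 1.22 ± 0.23 on the log2 scale (adjusted p = 0.00226), other mesenchyme by 2.73 ± 0.24 (1.156e-05) and endothelium by 5.38 ± 0.28 (9.883e-08). TBX5 was also higher in the epicardial gate than in other mesenchyme, by 1.51 ± 0.23 (adjusted p = 0.0141). With cells of several gates kept in the MYH6 gate, its difference from the epicardial gate was 0.70 (adjusted p = 0.0564). With free RNA removed the epicardial difference from other mesenchyme was 1.63 (0.141), and the ranges over the alternatives were 5.01e-06 to 0.0564 and 2.84e-07 to 0.141. After thinning, TBX5 was found in 36.0% and 39.7% of MYH6-gate cells and 24.0% and 25.0% of epicardial-gate cells, against 2.12% and 0.694% of erythroid cells.

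TBX20 (ENSG00000164532, chr7:35202430-35254100, minus strand), which patterns chamber myocardium, measured 280.0 and 363 CPM in the MYH6 gate, 111 and 217 in the epicardial gate and 73.3 and 139 in other mesenchyme. Organoid 33.10 was higher than 32.7 in all 3 gates, and the ranges of the epicardial gate and other mesenchyme overlapped. Their log2 difference was 0.52 ± 0.30 (adjusted p = 0.479 by edgeR's quasi-likelihood test, range over the alternatives 0.12 to 0.541). In endothelium TBX20 stood at 14.1 and 17.4 CPM and in blood at 14.0 and 15.2, which also overlap. The MYH6 gate was higher than the epicardial gate by 1.16 ± 0.30 on the log2 scale (adjusted p = 0.0138, edgeR's quasi-likelihood test), than other mesenchyme by 1.68 ± 0.30 (0.00161) and than endothelium by 4.37 ± 0.34 (1.861e-06). With cells of several gates kept in the MYH6 gate, the difference from the epicardial gate was 0.70 (adjusted p = 0.132, range over the alternatives 8.09e-05 to 0.132). Found in 47.5% and 60.7% of thinned MYH6-gate cells, TBX20 also occurred in 30.3% and 43.5% of epicardial-gate cells. Its shares were 21.5% and 30.9% in other mesenchyme and 5.72% and 4.86% in erythroid cells. The endothelial shares were 4.67% and 5.39%, and their difference from the erythroid shares was not tested.

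TBX2 and TBX3 are T-box repressors, and neither peaked in the MYH6 gate. TBX2 (ENSG00000121068, chr17:61399843-61409466, plus strand) measured 31.1 and 35.9 CPM in other mesenchyme, 23.5 and 22.6 in the epicardial gate, 15.03 and 13.9 in the MYH6 gate and at most 1.91 in the endothelium and blood gates of either organoid. These 3 upper gates did not overlap. The MYH6 gate was lower than other mesenchyme by 1.14 ± 0.19 on the log2 scale (adjusted p = 0.000881) and higher than endothelium by 3.05 ± 0.22 (9.485e-07). Its difference of -0.49 ± 0.19 from the epicardial gate had an adjusted p of 0.0790, and 0.0416 with the organoid as a block (range 0.0243 to 0.681). Between the epicardial gate and other mesenchyme the difference was -0.65 ± 0.19 (adjusted p = 0.146, with the organoid block 0.0438, range 0.00907 to 0.463).

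TBX3 (ENSG00000135111, chr12:114670255-114684175, minus strand), a regulator of pacemaker and conduction tissue, was found at levels of the same order in the MYH6, epicardial, endothelium and other-mesenchyme gates. It measured 28.3 and 24.4 CPM in the MYH6 gate, 38.5 and 24.9 in the epicardial gate, 37.0 and 44.6 in endothelium and 52.1 and 45.4 in other mesenchyme. The epicardial range overlapped those of the MYH6 gate and endothelium, and other mesenchyme was above all 3. The highest values came from the endoderm gate, at 64.6 and 114 CPM, with 46 and 39 UMIs in 24 and 13 cells. The MYH6 gate was lower than other mesenchyme by 0.82 ± 0.23 on the log2 scale (adjusted p = 0.0194, edgeR's quasi-likelihood test). It was also lower than endothelium by 0.61 ± 0.23 (adjusted p = 0.0479), a call that DESeq2 (0.0800), removal of free RNA (0.0795) and a limit to cells of 2000 to 50000 UMIs (0.0523) did not keep (range over the alternatives 0.00758 to 0.0800). Against the epicardial gate the difference was -0.09 ± 0.24 (adjusted p = 0.830), and with stricter gates it turned to 0.59 (adjusted p = 0.0429).

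HAND1 and HAND2 are closely related helix-loop-helix factors of the heart fields, and they differed in the epicardial gate. Their promoter sequences are shown because the pair diverged between the epicardial gate and other mesenchyme. Each line gives the bases from 250 before to 50 after the start of the gene in RefSeq (GRCh38.p14), 5′ to 3′ on the minus strand, with motif matches in capitals. HAND1 covers chr5:154478178-154478477 and HAND2 covers chr4:173530180-173530479.
HAND1: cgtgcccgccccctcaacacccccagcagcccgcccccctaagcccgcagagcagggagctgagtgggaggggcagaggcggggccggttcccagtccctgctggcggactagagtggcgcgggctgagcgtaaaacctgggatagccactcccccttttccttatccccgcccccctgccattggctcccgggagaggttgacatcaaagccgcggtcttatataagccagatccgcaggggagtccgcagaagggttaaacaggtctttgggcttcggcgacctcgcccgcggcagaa
HAND2: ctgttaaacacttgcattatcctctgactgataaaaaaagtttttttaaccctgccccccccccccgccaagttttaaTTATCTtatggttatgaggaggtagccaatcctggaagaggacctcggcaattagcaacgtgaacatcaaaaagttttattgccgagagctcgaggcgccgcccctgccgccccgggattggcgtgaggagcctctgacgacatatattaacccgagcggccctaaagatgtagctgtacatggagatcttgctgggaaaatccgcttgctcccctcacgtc
The capitals mark a GATA motif (AGATAA, read on the opposite strand) 172 bases before the start of HAND2. Motifs for GATA, NKX2-5 (TNAAGTG), T-box (AGGTGTNA), MEF2 (CTA, 4 bases of any kind, TAG) and the TATA box (TATAAA) were searched on both strands, and none was found in the HAND1 window in these exact forms. Related forms, such as tatataag in the HAND1 window and tgataa in the HAND2 window, were not searched. Among 35116 promoters of this length, 10.3% held the GATA motif, 10.2% the NKX2-5 motif, 2.61% the T-box motif, 2.73% the MEF2 motif and 11.5% the TATA motif. RefSeq promoters were matched for 7 of the 10 genes. Besides HAND2, ISL1 had a GATA match 31 bases before its start and MEF2C an NKX2-5 match 12 bases after it. The MEF2C window (chr5:88883135-88883434) lies inside the gene span given below from the GENCODE annotation, so this match is placed by the RefSeq start only.

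HAND1 (ENSG00000113196, chr5:154474972-154478227, minus strand) measured 254 and 143 CPM in other mesenchyme, 122 and 115 in the MYH6 gate, 54.2 and 43.8 in the epicardial gate, 8.86 and 4.64 in endothelium and 8.76 and 5.44 in blood. Organoid 32.7 was higher than 33.10 in each of these gates. The epicardial gate was lower than other mesenchyme by 2.14 ± 0.35 on the log2 scale (adjusted p = 0.0181) and lower than the MYH6 gate by 1.45 ± 0.34 (0.00913, edgeR's quasi-likelihood test). With free RNA removed the former had an adjusted p of 0.115 (range over the alternatives 9.05e-08 to 0.115). The MYH6 gate differed from other mesenchyme by -0.69 ± 0.33 (adjusted p = 0.137), and by -0.62 with the organoid as a block (0.0162, range 0.0153 to 0.283). Thinned to equal depth, HAND1 was found in 47.6% and 33.8% of other-mesenchyme cells, 33.2% and 31.5% of MYH6-gate cells, 13.8% and 10.99% of epicardial-gate cells and 2.94% and 1.60% of erythroid cells.

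HAND2 (ENSG00000164107, chr4:173524969-173530229, minus strand), required for growth of the right ventricle and for limb and neural crest mesenchyme, measured 254 and 279 CPM in the epicardial gate and 257 and 251.1 in other mesenchyme. These ranges overlapped, and the difference was -0.04 ± 0.11 on the log2 scale (adjusted p = 0.906). In the MYH6 gate it stood at 119 and 121 CPM, lower than the epicardial gate by 0.97 ± 0.11 (adjusted p = 9.979e-05) and than other mesenchyme by 1.01 ± 0.11 (6.094e-05, edgeR's quasi-likelihood test). With free RNA removed the differences were -1.01 and -1.08 with adjusted p of 0.313 and 0.263, and the ranges over the alternatives were 7.27e-20 to 0.313 and 2.62e-21 to 0.263. The differences thus did not shrink. This setting takes out all or most HAND2 UMIs of blood, where HAND2 is near 10% of its level over all cells (94.7 and 90.7 CPM). Blood shares the fit, and its part in these p-values was not tested. Endothelium (13.1 and 14.5 CPM) and blood (9.39 and 10.96) were lower than the MYH6 gate by 3.14 ± 0.12 and 3.31 ± 0.12. HAND2-AS1, a non-coding transcript that runs from the same promoter in the opposite direction, followed a like order, with 108 and 123 CPM in the epicardial gate, 88.4 and 92.7 in other mesenchyme, 77.6 and 81.8 in the MYH6 gate and 5.996 and 6.47 in endothelium. Cell Ranger, run with its default settings, counts reads on the sense strand of a gene.

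ISL1 (ENSG00000016082, chr5:51383448-51394730, plus strand), the LIM-homeobox factor of second heart field progenitors, was low everywhere and highest in other mesenchyme. It measured 19.4 and 17.8 CPM in other mesenchyme, 10.4 and 9.68 in the epicardial gate, 7.93 and 6.21 in the MYH6 gate, 3.94 and 3.99 in endothelium and 1.30 and 0.739 in blood. Other mesenchyme did not overlap with any other gate. The MYH6 gate was lower than other mesenchyme by 1.33 ± 0.25 on the log2 scale (adjusted p = 0.00206), and differed from the epicardial gate by -0.32 ± 0.26 (0.4001). It was higher than blood by 2.56 ± 0.28 (1.851e-05) and than endothelium by 0.85 ± 0.26 (0.0173), the last not kept with stricter gates (0.57, adjusted p = 0.144, range 0.00275 to 0.144). The epicardial gate differed from other mesenchyme by -1.01 ± 0.25 (adjusted p = 0.0913, with the organoid block 0.0133, range 0.00986 to 0.261). Only 2.85% and 2.33% of thinned MYH6-gate cells and 5.70% and 5.69% of other-mesenchyme cells held an ISL1 UMI, against 0 of 612 (up to 0.601%) and 0.0694% of erythroid cells.

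MEF2C (ENSG00000081189, chr5:88717117-88904257, minus strand), a MADS-box factor needed for heart looping and vascular development, was highest in endothelium. It measured 1148 and 1163 CPM in endothelium, 445 and 491 in the MYH6 gate, 126 and 150.2 in other mesenchyme, 115 and 126 in the epicardial gate and 300.3 and 326 in blood. Endothelium was above every other gate in both organoids, and the MYH6 gate was lower by 1.28 ± 0.15 on the log2 scale (adjusted p = 3.338e-05). The MYH6 gate was higher than the epicardial gate by 2.13 ± 0.15 (3.348e-06) and than other mesenchyme by 1.83 ± 0.15 (7.396e-06). From blood it differed by 0.32 ± 0.15 (adjusted p = 0.0784, with the organoid block 0.0190, by DESeq2 0.00106, range 0.00106 to 0.377). Thinned endothelial cells held MEF2C in 95.4% and 96.1%, MYH6-gate cells in 73.5% and 76.3%, and erythroid cells in 18.8% and 18.4%.

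IRX4, a homeobox factor of ventricular myocardium, was the gene most restricted to the MYH6 gate, and its promoter is shown for that reason. The sequence covers chr5:1886896-1887195 (GRCh38.p14, minus strand, 5′ to 3′) and holds none of the motifs searched, so it has no capitals. This window lies inside the gene span given below from the GENCODE annotation, so RefSeq and GENCODE place the start of IRX4 differently.
IRX4: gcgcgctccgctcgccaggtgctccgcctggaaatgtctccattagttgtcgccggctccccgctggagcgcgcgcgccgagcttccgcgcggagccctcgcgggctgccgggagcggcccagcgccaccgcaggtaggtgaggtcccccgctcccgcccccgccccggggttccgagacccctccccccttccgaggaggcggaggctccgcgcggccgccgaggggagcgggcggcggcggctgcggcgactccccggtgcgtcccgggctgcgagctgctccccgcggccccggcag
IRX4 (ENSG00000113430, chr5:1877413-1887236, minus strand) measured 66.0 and 42.8 CPM in the MYH6 gate, from 874 and 655 UMIs. Other gates held few UMIs, with 3 and 2 in the epicardial gate (0.384 and 0.186 CPM), 10 and 3 in endothelium (0.326 and 0.122 CPM), 25 and 9 in other mesenchyme (1.00 and 0.397 CPM) and 17 and 35 in blood (0.426 and 0.575 CPM). The ratio of the MYH6 gate to the epicardial gate was 172 (exact counting interval 58.7 to 836) and 230.1 (63.4 to 1904), to endothelium 203 (109.6 to 424) and 351 (119.5 to 1705) and to other mesenchyme 66.0 (44.4 to 103) and 108 (56.5 to 237). No IRX4 UMI was found in the endoderm gate, which makes the MYH6 gate at least 15.7-fold and 4.88-fold higher in the 2 organoids, with a floor of 3 UMIs per organoid. All 4 comparisons of the MYH6 gate passed, with adjusted p between 7.884e-07 and 6.15e-06 by edgeR's quasi-likelihood test. IRX4 was found in 20.2% and 15.1% of thinned MYH6-gate cells (31.9% and 29.1% before thinning), and in 0.163% and 0.278% of erythroid cells.

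The matrices precede the removal of free RNA, so each level outside the MYH6 gate was set beside 8 sarcomere genes (TNNT2, ACTC1, MYL7, MYL4, MYL3, TNNC1, TNNI1 and TTN) as a percentage of the gene's own MYH6-gate level. In endothelium these 8 genes stood at 0.574% to 1.11% in organoid 32.7 and 0.594% to 1.45% in 33.10. Each percentage depends on the gene's own MYH6-gate level. IRX4, at 0.494% and 0.285%, was below all 8 sarcomere genes, and the other 9 factors were above all 8 in both organoids, from TBX5 (2.21% and 2.66%) and NKX2-5 (2.85% and 2.70%) through TBX20 (5.04% and 4.79%), HAND1 (7.27% and 4.05%), TBX2 (10.8% and 13.7%) and HAND2 (11.003% and 12.0%) to ISL1 (49.7% and 64.2%), TBX3 (130.4% and 183%) and MEF2C (258% and 237%). In blood the sarcomere median was 1.07% and 1.13%, with MYL4 at 9.29% and 14.9% at the top of the range. MYL4 alone set this top, and in erythroid cells of organoid 32.7 it stood at 12.97% beside a median of 0.821%. The source of MYL4 in blood was not tested. TBX3 (27.2% and 41.0%) and MEF2C (67.5% and 66.4%) were above all 8 in both organoids and ISL1 (16.4% and 11.9%) in 32.7. NKX2-5 (1.28% and 1.15%) was within the range, and IRX4 (0.645% and 1.34%) was below it in 32.7. TBX5 (1.49% and 2.08%), TBX20, TBX2, HAND1 and HAND2 were above 7 of the 8 sarcomere genes in both organoids and below only MYL4. TBX20 stood at 5.01% and 4.19%, TBX2 at 9.16% and 7.78%, HAND1 at 7.19% and 4.75% and HAND2 at 7.87% and 9.03%. In the epicardial gate the sarcomere genes reached from 0.776% to 12.997% and 0.907% to 11.5%, with NKX2-5 (3.35% and 3.31%) inside this range and TBX5 (49.5% and 47.7%) and HAND1 (44.5% and 38.3%) above it. In other mesenchyme NKX2-5 (8.23% and 6.56%) was above 7 of the 8 sarcomere genes and below TNNI1 (13.2% and 10.7%), and IRX4 (1.51% and 0.927%) was below all 8. In other mesenchyme of organoid 32.7, TBX2, HAND1, HAND2 and ISL1 stood at 207%, 209%, 215% and 245% of their MYH6-gate level. Free RNA of such factors can also come from gates other than the MYH6 gate, which the sarcomere genes do not gauge. A place above the sarcomere genes therefore does not set a level apart from free RNA. The part of free RNA in each level was not tested.

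**Figure D3:**
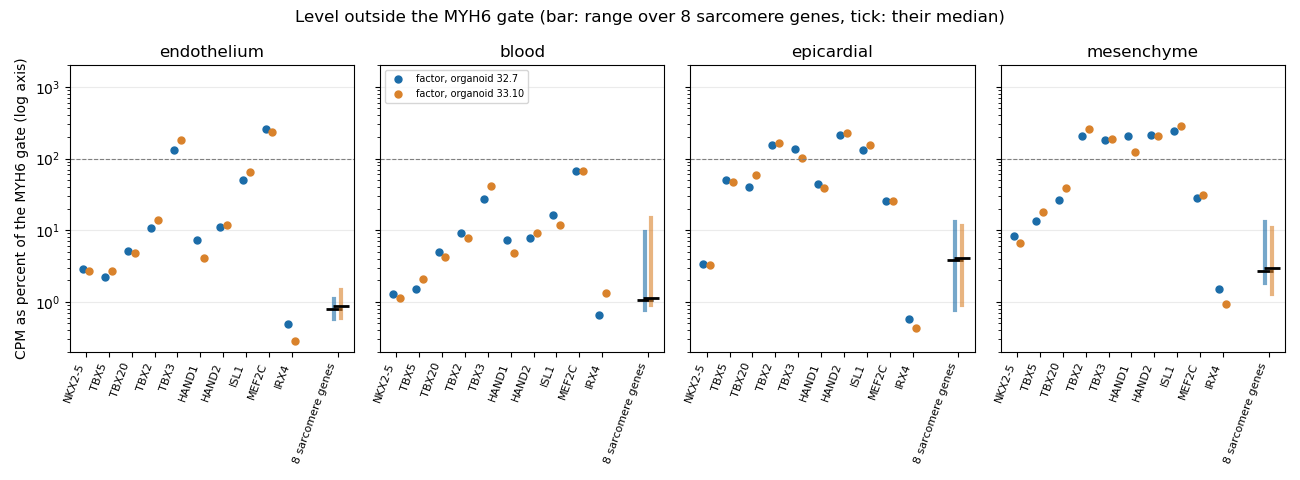
Level outside the MYH6 gate as a percentage of the level in the MYH6 gate (log axis) for the 10 factors, 1 point per organoid, with the range of the 8 sarcomere genes as a bar per organoid and a tick at their median. In endothelium IRX4 lay below the bar and the other 9 factors above it, and in the epicardial gate NKX2-5 lay inside it.

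Counted per cell, the factors were found together most often in the MYH6 gate. At 4000 UMIs per cell, the median MYH6-gate cell held 3 of the 10 genes in both organoids, and 69.9% and 73.4% held at least 3. The median was 2 in the epicardial and other-mesenchyme gates, 1 in endothelium and 0 in erythroid cells, of which 72.7% and 74.0% held none. TBX5 was found in 45.9% and 45.3% of MYH6-gate cells with a TBX20 UMI and in 27.0% and 31.0% of those without, and in the epicardial gate in 33.3% and 33.0% against 19.9% and 18.9%. NKX2-5 was found in 72.7% and 66.3% of MYH6-gate cells with IRX4 and 60.4% and 58.6% of those without. HAND1 showed no such difference by HAND2 in 2 gates with both genes, at 32.7% and 31.6% against 33.5% and 31.4% in the MYH6 gate and 47.0% and 33.7% against 48.3% and 33.9% in other mesenchyme. It did so where both were rare. In blood HAND1 was found in 21.8% and 11.3% of cells with HAND2 and in 2.23% and 1.28% of those without. In endothelium its shares were 12.1% and 4.94% against 1.75% and 0.984%. The source of these UMIs was not tested. In the MYH6 gate NKX2-5 was found in 63.5% and 60.8% of cells with TBX5 and 62.6% and 59.0% of those without. By TBX20 its shares were 62.9% and 58.0% against 62.9% and 62.4%, and by MEF2C 62.7% and 59.2% against 63.5% and 61.3%. TBX5 by HAND1 went opposite ways in the MYH6 gate, at 28.5% with and 39.7% without HAND1 in organoid 32.7 and 42.6% and 38.3% in 33.10. HAND2 was found in 38.2% and 40.5% of MYH6-gate cells with TBX20 and in 32.6% and 28.6% of those without. The pairs given are a part of those counted. Thinning left out 331 and 146 MYH6-gate cells with fewer UMIs, and these shares are descriptions of cells from 2 organoids with no test.

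**Figure D4:**
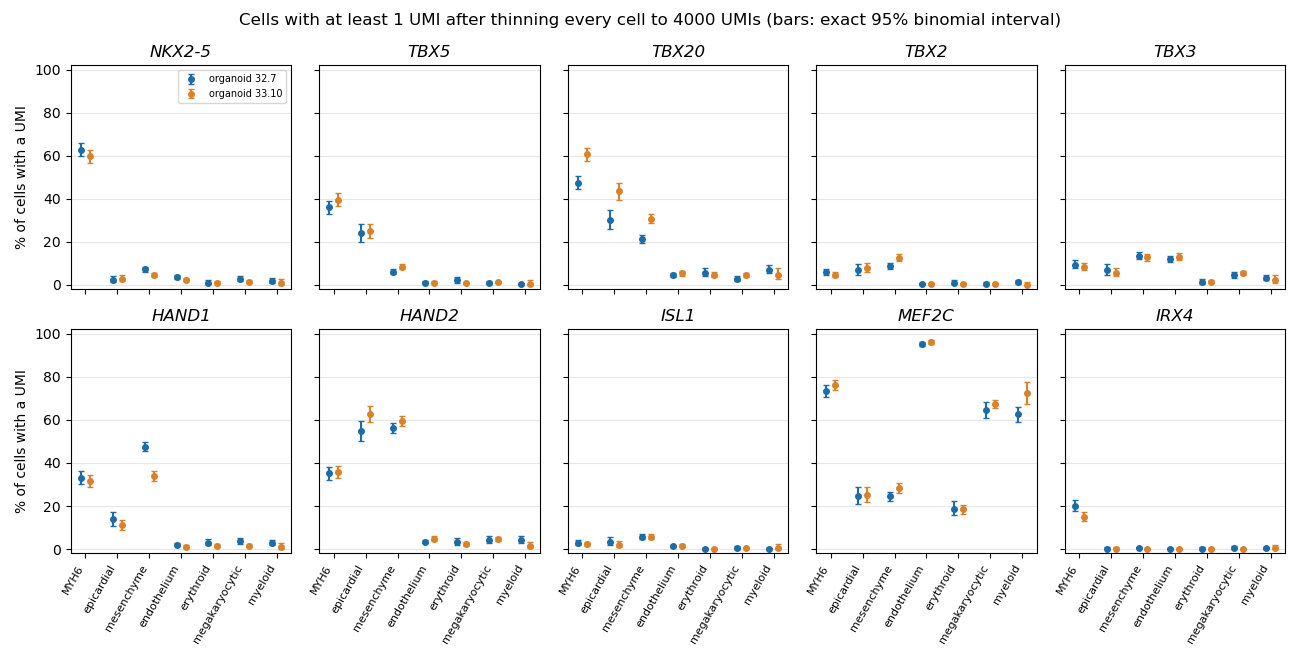
Percentage of cells with at least 1 UMI of each gene after thinning to 4000 UMIs per cell, by gate and organoid, with exact binomial 95% intervals that cover counting error only. NKX2-5 reached 62.9% and 59.7% in the MYH6 gate and about 1% in erythroid cells, and MEF2C 95.4% and 96.1% in endothelium.

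Within the MYH6 gate, TBX5 and TBX20 were higher in each successive bin of MYH6 count, whereas HAND2 was not and ISL1 was highest in the lowest bin. Over bins of 5 to 9, 10 to 19, 20 to 39 and at least 40 MYH6 UMIs, TBX5 measured 73.3, 105, 145 and 164.9 CPM in organoid 32.7 and 109.5, 142, 150.2 and 161 in 33.10. TBX20 measured 156, 252, 319 and 330.2 CPM and 307, 356, 362 and 397. The NKX2-5 values were 231, 289, 303 and 300.9 CPM and 228, 257, 268 and 259, level from the second bin on. ISL1 measured 15.3, 6.90, 8.65 and 4.28 CPM and 11.7, 4.71, 5.06 and 5.55, highest in the first bin of each organoid. IRX4 measured 47.7, 59.9, 72.3 and 74.1 CPM and 29.1, 46.5, 49.5 and 41.1, lowest in the first bin of each organoid. HAND2 stayed between 112 and 129 CPM in all 8 values. Cells of the upper bins were also deeper, with median UMIs of 4231, 6262, 11358 and 18152 and of 5618.5, 8093, 12342 and 20681, and TNNT2 was at 4386 and 4067 CPM in the lowest bin and 6526 and 5903 in the highest. No test was made across bins.

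**Figure D5:**
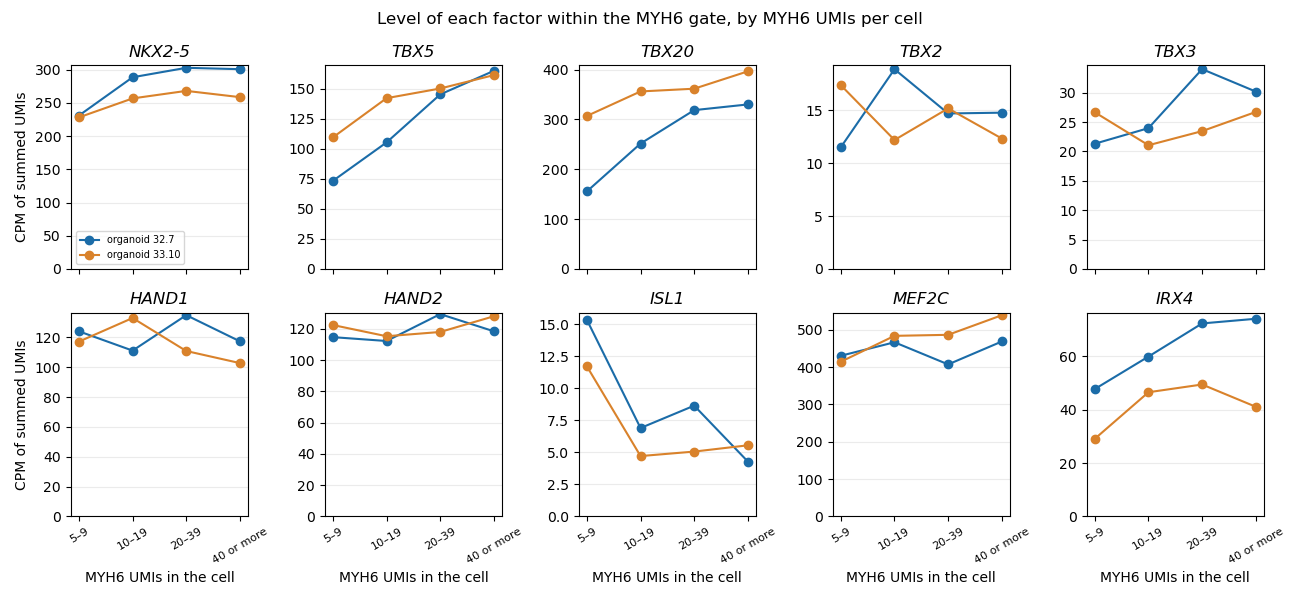
Level of the factors (CPM) by the number of MYH6 UMIs per cell within the MYH6 gate, 1 line per organoid. TBX5 went from 73.3 to 164.9 CPM in organoid 32.7 and from 109.5 to 161 in 33.10, and ISL1 was highest in the lowest bin of both.

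Cells of the MYH6 gate with SHOX2 or HCN4, a pacemaker factor and the pacemaker channel, were set against those without (171 and 217 cells with at least 2 UMIs, 921 and 808 with 0). None of the 10 factors passed, where 0.01% of 20009 genes did. By edgeR's quasi-likelihood test 1 of the 10, TBX5, had an unadjusted p under 0.05 (0.0137), beside 12.6% of all genes, and DESeq2 called 0, beside 5.54% of those it tested. TBX5 measured 178 and 177 CPM with SHOX2 or HCN4 and 107 and 118 without, which did not overlap (log2 difference 0.61 ± 0.21, adjusted p = 0.295). The ranges of TBX20 did not overlap either, at 384 and 412 against 226 and 309 CPM (0.53 ± 0.29, adjusted p = 0.466 by the same edgeR test). Those of HAND2 were also apart, at 127 and 124 against 116 and 120 CPM (0.04 ± 0.11, 0.905). TBX3 stood at 36.9 and 27.3 against 28.6 and 24.5 CPM, and the ranges overlapped (0.22 ± 0.26, adjusted p = 0.764). The cells with SHOX2 or HCN4 were deeper, with medians of 16898 and 16990 UMIs against 5808 and 7850.5, and SHOX2 itself was at 0.151 and 0.0654 CPM in the MYH6 gate, so that HCN4 made up nearly all of this class. Markers of other cell types were lower in them in both organoids, with the endothelial list at 218 and 168 against 386 and 289.7 CPM, the erythroid list at 79.5 and 157 against 355 and 596 and the megakaryocytic list at 48.3 and 76.9 against 280.3 and 237. The sum of the 4 cardiomyocyte markers was also lower, at 17843 and 16309 against 21666 and 18160 CPM, and the part of these markers was not tested. Cells with at least 3 MYL2 UMIs numbered 18 and 16 and were not tested.

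Cycling cells of the MYH6 gate (at least 3 UMIs over MKI67, TOP2A, CENPF and UBE2C, 77 and 82 cells) had lower values of NKX2-5, TBX5 and HAND2 than the 1061 and 1091 cells with none, but no factor passed in the fit without a block. NKX2-5 measured 163 and 199.5 against 315 and 268 CPM (log2 difference -0.83 ± 0.23, adjusted p = 0.0511, with the organoid block 0.0129, range 0.000332 to 0.127). TBX5 measured 88.8 and 95.3 against 143 and 149.7 CPM (-0.82 ± 0.23, adjusted p = 0.0594, blocked 0.0101, range 0.00137 to 0.228). HAND2 measured 109.95 and 88.2 against 119 and 126 CPM (-0.46 ± 0.13, adjusted p = 0.0668, blocked 0.0355, range 0.00366 to 0.728). In each of these 3 genes the ranges of the classes did not overlap. TBX20 (262 and 281 against 293 and 370 CPM) and MEF2C (398 and 449 against 459 and 493) also had lower CPM without overlap. Their log2 differences were -0.43 ± 0.29 (adjusted p = 0.433) and -0.32 ± 0.15 (0.248, edgeR's quasi-likelihood test). HAND1 (139 and 121 against 118 and 113 CPM) and TBX3 (32.1 and 30.7 against 28.9 and 24.3) had higher CPM without overlap. By the same test, which normalizes the sums, they differed little, by 0.02 ± 0.33 (adjusted p = 0.992) and 0.09 ± 0.28 (0.895). Cycling cells were deeper, with medians of 11742 and 17544 UMIs against 7468 and 9399. Of all 20584 genes, 5.68% passed by edgeR's quasi-likelihood test, and the median over all genes was -0.12. Of the 10 factors, 0 passed with it, 3 had an unadjusted p under 0.05, beside 20.2% of all genes, and DESeq2 called 3, beside 10.6% of the genes it tested. Markers of other cell types moved with this division. The sum of COL1A1, COL3A1, PDGFRB and POSTN was 565 and 610.1 CPM in cycling and 361 and 268 in other cells, that of KDR, TEK, EGFL7 and ESAM 416 and 475 against 283 and 201, and that of the 4 cardiomyocyte markers 13087 and 12962 against 21815 and 18147. The myeloid list was higher, at 140 and 156 against 31.5 and 21.7 CPM. The epicardial list was lower, at 335 and 308 against 484 and 444, as was the endoderm list. The erythroid and megakaryocytic lists went opposite ways in the organoids. Their part in the differences was not tested.

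Outside the myocardium, endothelium was set against blood, since both arise from haemato-endothelial progenitors. MEF2C was higher in endothelium by 1.61 ± 0.15 on the log2 scale (adjusted p = 6.082e-06), TBX3 by 1.92 ± 0.24 (5.301e-05), ISL1 by 1.71 ± 0.27 (0.000351) and NKX2-5 by 0.93 ± 0.25 (0.00836, edgeR's quasi-likelihood test). These 4 of 10 were higher and none lower, beside 25.1% of all genes higher and 50.9% passing in either direction. With stricter gates NKX2-5 differed by 0.42 (adjusted p = 0.193, range 3.16e-05 to 0.193). IRX4 differed by -1.37 ± 0.58 from 10 and 3 against 17 and 35 UMIs (adjusted p = 0.0753, with the organoid block 0.0246, range 0.0149 to 0.557). TBX5, TBX20, TBX2, HAND1 and HAND2 differed by -0.32 to 0.26 and did not pass. Endothelial cells with NFATC1 or NPR3, markers of endocardium (908 and 761 cells with at least 2 UMIs, 696 and 666 with 0), gave 0 of 10 calls, where 0.0144% of all genes passed. By the same edgeR test NKX2-5 and TBX2 had an unadjusted p under 0.05 (0.00394 and 0.0169), beside 4.23% of all genes, and DESeq2 called 0, beside 0.165% of those it tested. With no filter on low counts NKX2-5 was lower in cells with these markers (adjusted p = 0.0439). NKX2-5 measured 6.70 and 4.57 CPM with these markers and 11.4 and 11.1 without, and the 4 cardiomyocyte markers moved the same way, at 126 and 106 against 208 and 169 CPM. The erythroid list was lower too, at 82.3 and 236 against 211 and 553.5 CPM, as was the megakaryocytic list, at 66.0 and 118 against 139 and 246. The endoderm list went opposite ways in the organoids. Cells with NFATC1 or NPR3 were deeper, with medians of 16133.5 and 14353 UMIs against 10709.5 and 9526. The part of depth and of these transcripts was not tested.

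The 113 and 71 cells that met both the MYH6 and the endothelium gate and no other are described on their own. NKX2-5 stood at 103 and 101 CPM, 35.8% and 39.4% of its MYH6-gate level, beside a median of 40.5% and 45.5% for the 8 sarcomere genes. MEF2C measured 846 and 856 CPM, between 445 and 491 in the MYH6 gate and 1148 and 1163 in endothelium. IRX4 measured 19.8 and 18.3 CPM and TBX3 36.4 and 26.6. The median depth of these cells was 19676 and 22930 UMIs, above both gates (7904 and 9953, and 13875 and 11880.5). Whether these barcodes hold 1 cell or several was not tested.

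Among blood cells, MEF2C and TBX3 differed between lineages. MEF2C, which acts in megakaryocyte and myeloid development, measured 503.5 and 471 CPM in megakaryocytic, 338 and 439 in myeloid and 73.2 and 89.5 in erythroid cells. Megakaryocytic and myeloid cells were above erythroid cells in both organoids, by 2.35 ± 0.16 (adjusted p = 4.728e-08) and 1.95 ± 0.16 (2.26e-07) on the log2 scale. TBX3 measured 13.1 and 18.3, 8.10 and 6.98, and 3.04 and 2.89 CPM in the same order, with differences of 2.20 ± 0.26 (1.092e-05) and 1.09 ± 0.29 (0.00720). HAND2 was higher in megakaryocytic than in erythroid cells, at 12.4 and 15.9 against 7.31 and 7.42 CPM (0.72 ± 0.26, adjusted p = 0.0335, edgeR's quasi-likelihood test). Thus 3 of 10 factors passed for megakaryocytic cells, all higher, where 45.0% of 21444 genes passed (24.7% higher) and the median of all genes was 0.15. For myeloid cells 2 of 10 passed, both higher, where 41.5% did (23.0% higher). NKX2-5 differed by 0.82 ± 0.33 between megakaryocytic and erythroid cells (adjusted p = 0.0590, with the organoid block 0.0132, range 0.0033 to 0.137). HAND1 differed by -0.99 ± 0.58 between myeloid and erythroid cells (adjusted p = 0.199, blocked 0.0342, range 9.5e-06 to 0.310), from 97 and 8 against 128 and 96 UMIs. Markers of other cell types moved with these gates. The endothelial list summed to 637 and 623 CPM in megakaryocytic, 203 and 190.4 in myeloid and 151 and 159.9 in erythroid cells, and the cardiomyocyte list to 307 and 283, 208 and 98.7, and 195 and 167. Their part in the differences was not tested. After thinning, MEF2C was found in 64.7% and 67.5% of megakaryocytic, 62.7% and 72.6% of myeloid and 18.8% and 18.4% of erythroid cells.

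A wider list of 31 cardiac transcription factors and cofactors was read in the same comparisons. Between the MYH6 gate and endothelium, 18 were higher, 10 lower and 3 did not pass, beside 26.6% of all genes higher and 25.2% lower. The median was 0.85 on the log2 scale against 0.02 over all genes. MYOCD, the cofactor of SRF at muscle promoters, measured 461 and 599 CPM against 2.70 and 4.39 (7.26 ± 0.28, adjusted p = 2.1e-08), and the IRX genes IRX1, IRX2, IRX3 and IRX5 were all higher in the MYH6 gate, IRX5 by 5.08 ± 0.19. HOPX, a homeodomain cofactor without DNA binding of its own, was lower by 3.50 ± 0.17, NR2F2, a venous and atrial nuclear receptor, by 3.19 ± 0.22, and the Notch effectors HEY1 and HEY2 by 1.77 and 2.13. Against the epicardial gate 15 were higher, 9 lower and 7 did not pass, beside 14.4% of all genes higher and 14.0% lower. Against other mesenchyme the counts were 13, 7 and 11, beside 15.8% and 16.4%, and against blood 23, 1 and 7, beside 29.9% and 26.5%. GATA4, a partner of NKX2-5 and TBX5, measured 312 and 362 CPM in the MYH6 gate and 509 and 579.7 in the epicardial gate (-0.51 ± 0.19, adjusted p = 0.0614). Between the epicardial gate and other mesenchyme MYOCD and NR2F2 were higher, LBH lower and 28 did not pass, beside 0.727% of all genes higher and 0.428% lower.

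Of 16 target genes of these factors, 14 were higher in the MYH6 gate than in endothelium, with a median of 6.64 on the log2 scale. Of all genes, 26.6% were higher there and 25.2% lower. TNNT2, ACTC1 and MYL7 in this list also served as markers to check the MYH6 gate. NPPA, the atrial natriuretic peptide gene, measured 543 and 574 CPM against 3.13 and 3.30 (7.46 ± 0.24, adjusted p = 8e-09). The connexin genes GJA5 and GJA1 were the 2 exceptions, lower by 3.62 ± 0.33 and 3.27 ± 0.28. Against the epicardial gate 12 were higher and BMP10 lower, against other mesenchyme 13 higher and 2 lower, and against blood 14 higher and 0 lower, with 2 that did not pass. In the same order, 14.4%, 15.8% and 29.9% of all genes were higher and 14.0%, 16.4% and 26.5% lower. HCN4 was higher in the epicardial gate than in other mesenchyme, at 26.3 and 25.7 against 2.56 and 3.00 CPM (3.11 ± 0.24, adjusted p = 0.000349, edgeR's quasi-likelihood test). In cycling cells of the MYH6 gate 5 of 14 tested targets were lower, PLN, the regulator of the calcium pump, by 1.30 ± 0.25 and TNNT2 by 0.92 ± 0.21, and among 30 tested factors MYOCD, IRX2, IRX3, IRX5, SMYD1 and LBH were lower and HOPX and FOXC1 higher. Of all genes, 5.68% passed in this comparison in either direction.

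The genes most like each factor were taken from all genes by Pearson's r of log2(CPM + 5) over 16 sums (8 gates in 2 organoids), as a description. The sums share libraries and depth, and a gate with the gene at a high level can set r by itself. NKX2-5 was most like AL049838.1, DGCR6 and CORO6 (r = 0.97 for each), TBX5 like CCDC141, REEP2 and AC011900.1 (0.98) and TBX20 like AC011900.1 (0.99), PLPPR4 and KCNH7. TBX2 was most like RSPO3 (0.99), IL11RA and CDH11, HAND2 like LRRN4 (0.99), SEMA6D and RSPO3, HAND1 like AC110296.1 (0.98), AC009055.1 and RERG, and ISL1 like IGDCC3 (0.98), P4HA2 and LINC01697. TBX3 was most like NR2F6 (0.96), ZNF275 and ZNF358, and MEF2C like CCDC85B (0.97), its antisense gene MEF2C-AS2 (0.96) and VPS37B. IRX4 reached the highest likeness, with HSPB2, KCNJ5 and BANCR. Between the factors themselves, r was highest for TBX2 with HAND2 (0.98), TBX5 with TBX20 (0.96) and NKX2-5 with IRX4 (0.93), and lowest for ISL1 with MEF2C (-0.29).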

How the data were processed

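Single-cell 3′ gene expression was measured in 2 BG-HFOs. The deposited matrices hold raw counts of UMIs per gene and barcode, which the authors made with Cell Ranger 7.0.0 (GRCh38, intronic reads included), before their depth aggregation and SoupX correction, so free RNA can add UMIs to every gate. Gates used raw UMIs as given above. A marker used in the blood gates is not reported here. UMIs were summed per gate and organoid, all gates were fitted together without a block in edgeR 4.0.16 (R 4.3.3, TMM, filterByExpr, glmQLFit, glmQLFTest), and p-values were adjusted over all genes tested by Benjamini-Hochberg. Each gene's spread between organoids is thus pooled over all gates of a fit and moderated over all genes. The SE given is the log2 difference divided by the square root of the test's F, so it shares this pooling. The code was tested on simulated data. Organoid numbers pair the gates, which come from the same organoid: differences between organoids correlated between gates at r = 0.0289 to 0.273 over 21733 genes, and a fit with the organoid as a block was an alternative, as were DESeq2 1.42.0, stricter gates (thresholds multiplied by 2), no filter, removal of 10% of each sum as free RNA, cells of 2000 to 50000 UMIs and single organoids. The free RNA removed had the profile of all kept cells of the organoid, and values below 0 were set to 0. Keeping cells of several gates and leaving out the endoderm gate were added after seeing the data. Gene positions came from GENCODE 44. The 10 genes and all lists were chosen with earlier results of these data known. The genes named are the 10, the fixed lists and the 3 most alike per gene.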

Additional observations from a re-analysis of the deposited data

How the results depend on the processing

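Depth and n limit these results to differences that exceed the spread between 2 organoids, and IRX4 outside the MYH6 gate, the endoderm gate and classes under 100 cells rest on few UMIs. Of the 110 differences of the 10 factors, 99 kept their call with the organoid as replicate block and 11 came to pass, 99 of 109 with DESeq2 (9 came to pass, 1 was lost, and ISL1 with SHOX2 or HCN4 had no adjusted p), 100 with stricter gates (6, 3, 1 reversed), 100 with free RNA removed (4, 6), 100 with no filter on low counts (10, 0), 107 in cells of medium depth (2, 1), 102 with cells of several gates kept (5, 3) and 104 without the endoderm gate (6, 0). The block changed no other call. A single difference passed in the opposite direction, TBX3 between the MYH6 and epicardial gates, at 0.59 with stricter gates (adjusted p = 0.0429) against -0.09. Leaving out an organoid leaves no residual degrees of freedom and gave values with no test. Of the 47 differences that passed, 0 changed sign in a single organoid or under any alternative. Of the 63 that did not pass, 17 had opposite signs in the 2 organoids and 15 turned with stricter gates. For all genes, the count between the epicardial gate and other mesenchyme was 251 of 21733 genes (62.9% higher) and became 728 with stricter gates, 936 with DESeq2 (50.4% higher), 827 without a filter, 1138 with the block and 25 with free RNA removed (88.0% higher). For SHOX2 or HCN4 the count of 2 became 13 with stricter gates, 13 with free RNA removed, 614 with DESeq2 (28.5% higher), 446 without a filter, 385 with the block, and 1 both with cells of several gates kept and without the endoderm gate. For cycling cells 1169 (66.7% higher) became 1835 with DESeq2, 1986 without a filter, 1872 with the block and 2732 with cells of several gates kept, and the share higher was 79.2% with free RNA removed. For NFATC1 or NPR3 the count of 3 became 27 with DESeq2 (22.2% higher), 47 without a filter, 8 with the block and 5 with free RNA removed. The cause of these changes was not tested. The alternatives for MYL2 were not run, as too few cells held it.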
